A study of Mus musculus with 249 samples.

Results

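The Hist1 cluster is the main group of histone genes in the mouse genome. It was examined here as the 40 kb windows of chr13:20800001-25000000 (mm9), which are 105 of the 68162 windows in the segregation table. The histone genes of the cluster lie in 2 blocks. End 1 (chr13:21800001-22200000) held 10 windows and 23 Hist1 genes, whose starts lay in 5 of the windows. End 2 (chr13:23480001-23960000), whose bounds were widened to whole windows, held 12 windows and 29 Hist1 genes, whose starts lay in 6 of them. Between the ends lay a middle segment of 32 windows with 31 genes for vomeronasal receptors and 0 histone genes. A left flank of 25 windows and a right flank of 26 windows completed the region, and 2 further Hist1 genes lay in the right flank. The windows were chosen by position, and no measured value entered the choice. The genes at its centre were the 5 somatic linker histone genes Hist1h1a, Hist1h1b, Hist1h1c, Hist1h1d and Hist1h1e, each with its start in a window of its own.

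The data were multiplex genome architecture mapping (GAM) libraries made from 46C, an embryonic stem cell line of the mouse. With this method nuclei are cut into thin slices whose DNA is sequenced, spatial proximity is read from how often windows are detected in the same libraries, and in the multiplex form several slices from different cells share a tube. All sample titles gave 4 slices per tube, of which the study's text says that not every one met a nucleus, so that the average number of nuclear profiles was lower. All cells shared 1 culture protocol, and neither treatment nor genotype differed between libraries, so the groups below are versions of the laboratory protocol. Each library gave a call of positive or negative for each window.

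By title, the 11 experiments tested reagent volumes of whole genome amplification (protocols A, B and C with 10, 11 and 10 libraries), proteinase K volumes (1 µl, 5 libraries, and 2 µl, 6 libraries), freezing after incubation (10 frozen and 11 unfrozen libraries), early against late freezing (12 and 11), PCR cycle number (4, 5 and 3 libraries with 20, 23 and 25 cycles), cresyl violet (16 stained and 10 unstained), large and small kits (11 and 12), a full collection (54), and the unstained arms of propidium iodide (20), SYBR Gold (10) and eosin (18) tests. The study's text describes the collection as an independent biological replicate of the cells, and the labels name no separate cultures, so the errors and p-values measure the spread between libraries, which may be technical. Across libraries, 3.40% to 45.2% of all windows were positive, with a median of 17.1%, and no 2 libraries held identical calls.

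Histone genes of this kind are transcribed in S phase, when newly made DNA must be packed, and their transcripts end in a stem-loop in place of a poly(A) tail. Active histone gene clusters gather at the histone locus body, a nuclear body with the coactivator NPAT at its core. Core histones H2A, H2B, H3 and H4 form the nucleosome, while the linker histone H1 binds where DNA enters and leaves it. Vomeronasal receptors, which detect pheromones, are used in sensory neurons of the nose.

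The region held 13 H2A, 15 H2B, 9 H3, 11 H4 and 6 H1 genes of the Hist1 family. The sixth H1 gene, Hist1h1t, is the testis form, and its start was in the window at chr13:23760001-23800000. The proximal promoters of the 5 somatic H1 genes are shown because they are the regulatory sequence that the linker genes at both ends have in common. The runs are the 150 bases before each start, 5′ to 3′ on the strand of the gene, from RefSeq (GRCm38.p6, a later build than that of the windows), where the genes are named H1f1, H1f5, H1f2, H1f3 and H1f4 in the order printed. Capitals mark 3 motifs, which were searched on both strands: CCAAT, the TATA box TATAAA and the H1 box AAACACA. The runs lie at chr13:23763518-23763667 (plus strand, Hist1h1a), chr13:21780626-21780775 (minus, Hist1h1b), chr13:23738657-23738806 (plus, Hist1h1c), chr13:23554882-23555031 (plus, Hist1h1d) and chr13:23622559-23622708 (minus, Hist1h1e).
Hist1h1a: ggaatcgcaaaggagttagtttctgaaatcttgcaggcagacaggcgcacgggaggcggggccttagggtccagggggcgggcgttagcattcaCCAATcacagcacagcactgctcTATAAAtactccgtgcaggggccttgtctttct
Hist1h1b: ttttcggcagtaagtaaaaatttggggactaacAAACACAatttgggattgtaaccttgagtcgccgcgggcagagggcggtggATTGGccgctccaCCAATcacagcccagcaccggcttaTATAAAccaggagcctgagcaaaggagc
Hist1h1c: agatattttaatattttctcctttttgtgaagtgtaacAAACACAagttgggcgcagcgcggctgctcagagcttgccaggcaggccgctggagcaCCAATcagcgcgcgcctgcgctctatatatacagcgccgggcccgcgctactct
Hist1h1d: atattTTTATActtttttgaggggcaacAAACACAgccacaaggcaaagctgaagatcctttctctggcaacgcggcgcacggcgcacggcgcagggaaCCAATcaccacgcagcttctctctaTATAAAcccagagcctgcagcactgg
Hist1h1e: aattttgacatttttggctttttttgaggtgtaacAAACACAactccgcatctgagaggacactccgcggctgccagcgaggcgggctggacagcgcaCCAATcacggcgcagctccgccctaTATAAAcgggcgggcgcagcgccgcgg

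All 5 promoters held CCAAT, a motif found in 24.5% of 32851 RefSeq promoter windows of this length and in 44 of 52 matched Hist1 promoters. Only exact matches were counted. TATAAA was in 4 of the 5, with Hist1h1c as the exception, against 7.57% of all promoters and 21 of the 52 Hist1 promoters. The run of Hist1h1c holds tatatata, which is no exact match. In Hist1h1d a second match lay on the other strand, 145 bases before the start, and the first lay at 26 bases. AAACACA was in 4 of the 5, with Hist1h1a as the exception, against 3.53% of all promoters and 8 of the 52. None of the 3 motifs overlapped another. These letters are a description of the sequence and carry no measurement of binding.

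Windows of the Hist1 ends were detected somewhat more often than the receptor windows between them. The 22 end windows were positive in 40 to 79 libraries with a median of 60.5, against a mean of 52.9 ± 8.49 libraries (SD) over 2790 windows of chromosome 13 outside the region that were positive in at least 25 libraries. The mean was 58.4 ± 9.11 (SD, n = 10 windows) for end 1 and 62.5 ± 8.76 (SD, n = 12) for end 2. In the middle it was 53.1 ± 7.07 over the 30 windows positive in at least 25 libraries. The 12 windows with a Hist1 gene were positive in 61.4 ± 8.23 libraries and the 22 windows with a vomeronasal receptor gene in 52.1 ± 6.0. GC content moved with this contrast, at 42.6% in the histone windows and 40.2% in the receptor windows, and its part in the detection was not tested. Over libraries, the share of end windows positive exceeded that of middle windows by 3.03 ± 1.20 percentage points (SE over all libraries), with 109 libraries higher at the ends, 66 lower and 74 equal. This excess dropped to 1.26 percentage points without the full collection.

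The 5 H1 windows lay at or above the typical level of the chromosome. Hist1h1b (chr13:21840001-21880000), the linker gene of end 1, was positive in 60 libraries, more than 80.2% of the chromosome 13 windows. By experiment its share ran from 3.23% (1 of 31, reagent volumes) over a median of 25.0% to 39.1% (9 of 23, early freezing). In end 2, Hist1h1d (chr13:23640001-23680000) was positive in 59 libraries, with a lowest share of 8.33% (1 of 12, PCR cycles), a median of 27.3% and a highest share of 34.8% (8 of 23, kits). Hist1h1e (chr13:23680001-23720000) was positive in 69 libraries, and its share ran from 8.33% (1 of 12, PCR cycles) over a median of 30.4% to 42.3% (11 of 26, cresyl violet). Hist1h1c (chr13:23800001-23840000) was positive in 65, with 16.7% (2 of 12, PCR cycles), 27.3% and 43.5% (10 of 23, early freezing) as the lowest, median and highest share. Hist1h1a (chr13:23840001-23880000) was positive in 69, with 0 of 12 in the PCR cycle experiment, a median of 27.8% and 43.5% (10 of 23) in the early freezing experiment. The order among Hist1h1e, Hist1h1a, Hist1h1c, Hist1h1b and Hist1h1d spans 10 libraries, less than the spread of each between experiments (SD of 7.89 to 11.9 percentage points).

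The extremes among the ends were windows around the histone genes as well as within them. The most often detected, chr13:23480001-23520000, was positive in 79 libraries and overlaps Abt1, and the next, chr13:22040001-22080000, was positive in 71 and overlaps Zfp184 and Pom121l2. The least often detected, chr13:21880001-21920000, was positive in 40 and overlaps Hist1h2bp, Hist1h2bq, Hist1h2ao and Hist1h4m. The second lowest, chr13:22160001-22200000, was positive in 47 and holds Vmn1r188 and Vmn1r189. Near the centre of the middle, chr13:23000001-23040000 and chr13:23040001-23080000 were positive in 3 and 24 libraries and did not enter the linkage maps.

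**Figure D1:**
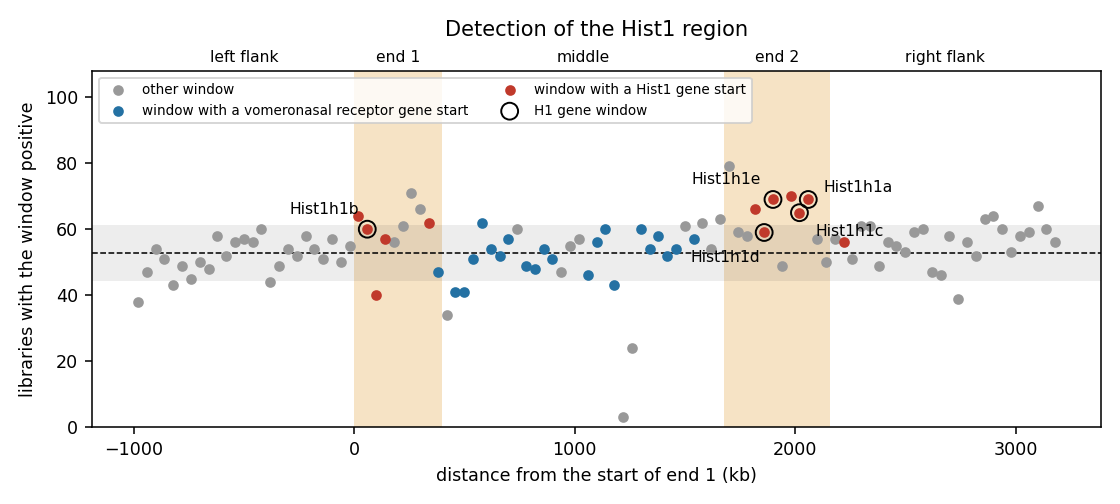
Number of libraries in which each window of the region was positive, against distance in kb from the start of end 1. Shading marks both ends, and the dashed line and grey band give the mean ± 1 SD of chromosome 13 windows outside the region (52.9 ± 8.49). Most end 2 windows with Hist1 genes lie above the band, and 2 windows of the middle fall to 3 and 24 libraries.

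Within a library, capture of the region was usually partial. Over its 103 windows positive in at least 25 libraries, the share positive in a library had a median of 15.5% and a maximum of 78.6%, and 51 libraries held none. Over libraries, the share of the 22 end windows positive ran from 0 over a median of 13.6% to 95.5%, and 90 libraries held no end window. A positive window was present at end 1 in 129 libraries and at end 2 in 144. Both ends were present in 114 libraries, end 1 alone in 15 and end 2 alone in 30. Of the 5 H1 windows, 0 were positive in 127 libraries, 1 in 28, 2 in 32, 3 in 27, 4 in 26 and all 5 in 9.

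Windows of the 2 ends, 1.32 to 2.12 Mb apart, were linked. The question was whether they were linked more than other pairs at that distance. Linkage was measured as D′, the excess of co-detection over chance as a share of its largest possible value, which is 0 for independent windows and 1 for windows that always co-occur where they can. Of the 120 pairs between end 1 and end 2, 116 were linked by Fisher's exact test (two-sided, Benjamini-Hochberg adjusted over all 5863935 pairs up to 4 Mb, threshold 0.05), against 84.8% of all pairs, 88.8% of autosomal pairs at these distances and 92.4% of chromosome 13 pairs at these distances outside the region. With libraries stratified into 3 classes of coverage (Mantel-Haenszel test), 101 of 120 were linked, against 84.2% of such chromosome 13 pairs and 75.2% of all pairs. Stratified by experiment, 116 were linked, against 92.5% and 84.4%. The share of end pairs called was thus close to the background.

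The mean D′ between the ends was 0.306 ± 0.0301 (jackknife SE over libraries), and the mean of chromosome 13 pairs at the same distances was 0.278. The excess of 0.0285 ± 0.0308 was within its error, and it was 0.0106 without the full collection. It was higher than 72.7% of the 2602 placements of blocks with the same spacing elsewhere on chromosome 13, which overlap each other and serve as a description. Among the experiments in which windows positive in at least 3 libraries gave at least 80 pairs, the excess was above 0 in 6 of 8. It was 0.111 in the full collection (54 libraries) and -0.316 in the reagent volume experiment (31 libraries), where the mean D′ was -0.145. No error was computed within experiments.

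**Figure D2:**
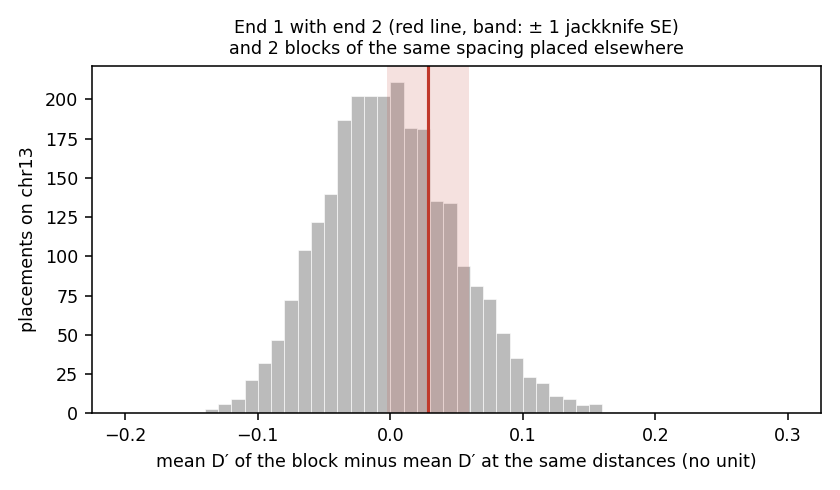
Histogram of the excess of mean D′ over the mean at equal distance for 2602 placements of a pair of blocks with the spacing of end 1 and end 2 along chromosome 13. The red line gives the Hist1 ends (0.0285) and the band ± 1 jackknife SE (0.0308), and the line falls within the body of the histogram.

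Single pairs varied around this mean. A z-score gave the D′ of a pair relative to all chromosome 13 pairs at the same distance, in SD, while the means and ranks given beside it are over pairs outside the region. It was above 0 in 83 of the 120 pairs (49.8% of chromosome 13 pairs at these distances outside the region), above 1 in 30 (16.2%) and below -1 in 7 (14.9%). The highest z-score, 2.76, belonged to chr13:22120001-22160000, with 5 Hist1 genes, and chr13:23480001-23520000, the Abt1 window at the inner edge of end 2. This pair was positive together in 43 libraries where independence would give 19.7, with a D′ of 0.551 ± 0.0792. The next were pairs of the receptor window chr13:22160001-22200000 with Hist1 windows of end 2, at chr13:23600001-23640000 (z = 2.68) and chr13:23760001-23800000 (z = 2.43).

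The 3 lowest of the pairs between the ends lay below the mean of their distance. The window chr13:21880001-21920000 had z-scores of -2.24 with chr13:23880001-23920000, which holds Trim38 and Slc17a2, and -1.49 with chr13:23920001-23960000. The pair of chr13:22000001-22040000 and chr13:23720001-23760000 had a z-score of -1.87. Together these 3 pairs were co-detected in 11, 12 and 16 libraries, and none was linked by Fisher's exact test (adjusted p = 0.546, 0.140 and 0.154). In the same order, their D′ was 0.0598 ± 0.0849, 0.124 ± 0.0836 and 0.108 ± 0.0798 (SE), against means of 0.260, 0.259 and 0.277.

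Among the H1 genes, the linker gene of end 1 was linked with all 4 of end 2, where 92.4% of chromosome 13 pairs at such distances were linked, and its D′ was highest with Hist1h1e, by less than the SE of a single pair over Hist1h1c. Hist1h1b and Hist1h1e, 1840 kb apart, were positive together in 35 libraries against 16.6 expected, with a D′ of 0.424 ± 0.0794 (SE) and an adjusted p of 8.69e-08 by Fisher's exact test. The mean at that distance was 0.269, and 95.3% of the 2662 chromosome 13 pairs were lower (z = 1.74), although the distance from that mean was less than 2 SE. Hist1h1b and Hist1h1c shared 31 libraries against 15.7 expected, with a D′ of 0.346 ± 0.0775 and a mean of 0.262 at 1960 kb (z = 0.99). With Hist1h1d the D′ of 0.263 ± 0.0747 was close to the mean of 0.273 at 1800 kb (z = -0.08). With Hist1h1a, which shared 26 libraries against 16.6 expected, the D′ was 0.216 ± 0.0774 against a mean of 0.260 at 2000 kb (z = -0.47). That last pair was linked with an adjusted p of 0.00448 by Fisher's exact test, and the p was 0.0572 without the early freezing experiment and 0.101 without the full collection.

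The linker genes within end 2 lie 40 to 200 kb apart, and all 6 of their pairs were linked, as were all 66 window pairs of end 2 and 100% of chromosome 13 pairs at these distances outside the region (13820 of 13821). Hist1h1d and Hist1h1e, neighbours at 40 kb, had a D′ of 0.625 ± 0.0753, against a mean of 0.633. Hist1h1c and Hist1h1a, also neighbours, had a D′ of 0.574 ± 0.0729. Hist1h1e and Hist1h1a, at 160 kb, had a D′ of 0.338 ± 0.0882 against a mean of 0.510, and only 2.83% of the 2760 pairs at that distance were lower (z = -1.97). Hist1h1d and Hist1h1a, farther apart at 200 kb, had a D′ of 0.531 ± 0.0787, above their mean of 0.495. Hist1h1e was thus in both outlying pairs, below the mean of its distance with Hist1h1a and above it with Hist1h1b across the receptor genes, each by less than 2 SE, while the other 8 pairs had z-scores from -0.76 to 0.99.

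**Figure D3:**
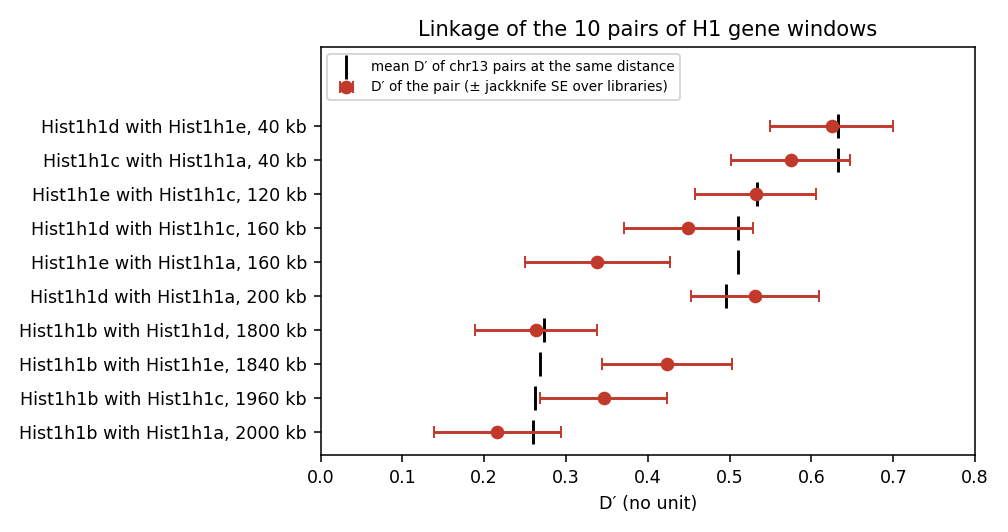
D′ of the 10 pairs of H1 gene windows, with jackknife SE over libraries (red), and the mean D′ of chromosome 13 pairs outside the region at the same distance (black). Hist1h1b with Hist1h1e (0.424) lies above its mark (0.269), and Hist1h1e with Hist1h1a (0.338) lies below its mark (0.510).

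The highest D′ values at 200 kb or more mostly belonged to nearby windows, since D′ falls with distance. For Hist1h1b the 3 highest D′ values, 0.521, 0.512 and 0.468, were with windows of the left flank at chr13:21400001-21440000, chr13:21600001-21640000 and chr13:21520001-21560000. For Hist1h1a, which lies farthest to the right, they were Hist1h1d (0.531) and 2 windows of the right flank, at chr13:24280001-24320000 (0.530) and chr13:24320001-24360000 (0.508). For Hist1h1c all 3 were in the middle, the highest at chr13:23360001-23400000 (0.454). For Hist1h1e they were 2 windows of the middle, with 0.616 at chr13:23400001-23440000 and 0.531 at chr13:22880001-22920000, and the Abt1 window (0.512). For Hist1h1d they were Hist1h1a, a window of the middle at chr13:22720001-22760000 (0.526) and the receptor window of end 1 at chr13:22160001-22200000 (0.470). Relative to their distance, the middle and end 1 partners of Hist1h1d lay at z-scores of 1.90 and 1.97 and the middle partners of Hist1h1e at 1.69 and 1.75. The z-scores of the other partners were lower.

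Across the segments, linkage was higher than average inside the receptor segment and lower than average from the middle and end 1 to the right flank. The middle had a mean D′ of 0.494 within itself against 0.449 at equal distances. This excess of 0.0455 ± 0.0270 (SE) was less than 2 SE from 0 and higher than 92.0% of 2649 placements. By experiment, with windows positive in at least 3 libraries, it was above 0 in 7. It was -0.0682 in the full collection (54 libraries), -0.0290 in the cresyl violet experiment and -0.293 in the SYBR Gold experiment (36 pairs). The PCR cycle experiment gave no pairs, and no error was computed within experiments. Within end 2 the excess was -0.0650 ± 0.0304, with 5.13% of placements lower, and within end 1 it was -0.0359 ± 0.0351. The middle exceeded end 2 by 0.111 ± 0.0378 and end 1 by 0.0815 ± 0.0395. Between the middle and the right flank the excess was -0.0999 ± 0.0343, and only 4 of 2554 placements were lower. End 1 with the right flank had -0.0788 ± 0.0369, with 1.77% of placements lower, and -0.121 without the full collection. End 2 with the adjoining right flank had -0.0478 ± 0.0342, less than 2 SE from 0, with 12.6% of placements lower.

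The ends themselves stood between these values. End 1 with the middle had an excess of 0.0066 ± 0.0333 and the middle with end 2 had -0.0235 ± 0.0294, both within their error. The linkage of end 1 with end 2 exceeded that of the middle with end 2 by 0.0519 ± 0.0291, less than 2 SE, and that of end 1 with the right flank by 0.107 ± 0.0298. The left flank had 0.0296 ± 0.0343 with end 2 and -0.0444 ± 0.0344 with the adjoining end 1.

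By gene content, pairs of histone windows lay above the mean on average at the distances of the ends, as did pairs of a histone window with other windows. The 33 pairs of histone windows at the distances of the ends had a mean z-score of 0.48, with 72.7% above 0. Of chromosome 13 pairs at these distances outside the region, 49.8% were above 0. Most of the 33 pairs belong to the block of end 1 with end 2. The mean z-score of that block against pairs outside the region was 0.319 ± 0.346 (SE), within its error. All 66 pairs of histone windows, neighbours included, had a mean z-score of -0.12. Over 200 kb to 4 Mb, receptor windows had a mean z-score of 0.55 with each other (175 pairs, 75.4% above 0). Histone windows had 0.13 with each other over that range (47 pairs, 57.4% above 0). With receptor windows they had -0.02 (261 pairs), and with windows of neither class -0.26 (773 pairs). Pairs of a histone and a receptor window at the distances of the ends had a mean z-score of 0.27 (61 pairs, 60.7% above 0), pairs of a histone window and a window with neither gene class had 0.28 (129 pairs, 68.2% above 0), and those of a receptor window and a window with neither had -0.82 (655 pairs). These pairs share windows and libraries, no error was computed for the class means, and no test was made between classes.

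**Figure D4:**
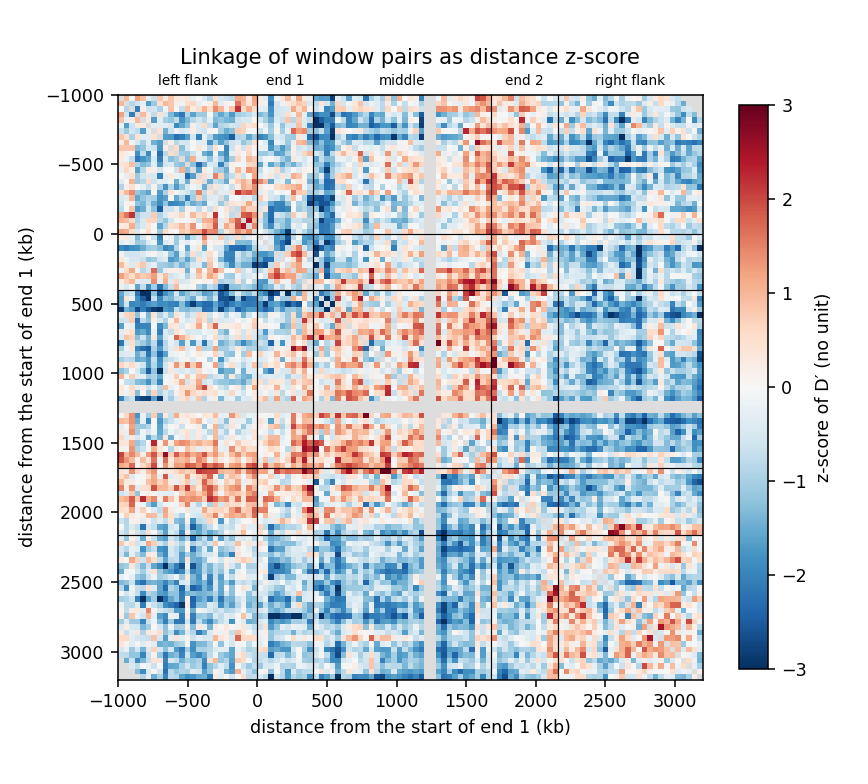
The z-score of D′ for window pairs of the region, with distance from the start of end 1 in kb on both axes, red for higher and blue for lower than the mean of chromosome 13 pairs outside the region at equal distance, and grey for windows positive in under 25 libraries. Black lines bound both ends. The square of the middle is mostly red (mean D′ 0.494 against 0.449), and its rectangle with the right flank is mostly blue (0.188 against 0.288).

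Each histone block coincided with a minimum of the insulation score, the mean D′ between the 400 kb to the left and to the right of a position, which is low at borders between domains. Of 126 minima called on chromosome 13, 5 lay in the region. The lowest, at chr13:21920001 between Hist1 genes of end 1, had a score of 0.325 ± 0.0369 (jackknife SE), -2.65 SD from the chromosome mean, and 5 of 2877 scored positions (0.174%) were lower. The second, at chr13:23800001 at the left edge of the Hist1h1c window, had a score of 0.337 ± 0.0370, -2.40 SD from the mean, with 0.695% of positions lower. Between them the score rose to 0.516 ± 0.0336 at 23.12 Mb, inside the receptor segment, and to the right it was 0.501 ± 0.0301 at 24.24 Mb.

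Other settings placed minima inside the same blocks. With the square of 240 kb, end 1 held 2 minima, at chr13:21800001 (-2.31 SD) and chr13:22120001 (-2.16 SD, with 1.66% of positions lower), and end 2 held 1 at chr13:23840001. With the square of 600 kb the minima were at chr13:21880001 and chr13:23720001. When each experiment was left out in turn, the minimum of end 1 was called at 21.92 Mb each time and that of end 2 at 23.8 or 23.84 Mb. The score at end 1 was less extreme with the square of 600 kb, at -1.80 SD with 4.31% of positions lower. The other minima in the region, at 21.32, 22.96 and 24.56 Mb, had scores of -1.47, 0.79 and -0.24 SD.

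**Figure D5:**
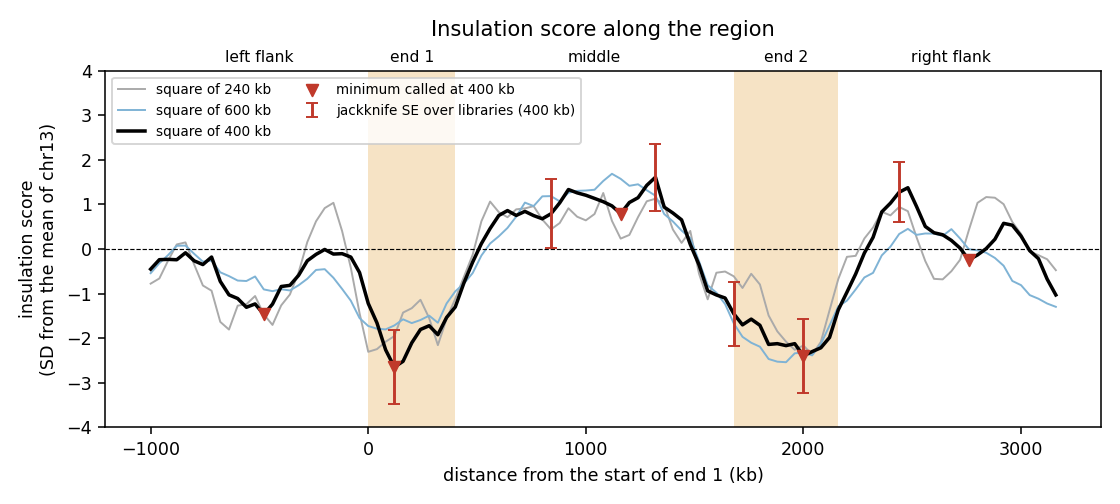
Insulation score in SD from the mean of chromosome 13, against distance from the start of end 1 in kb, for squares of 240, 400 and 600 kb. Triangles mark minima called at 400 kb, and red bars give the jackknife SE over libraries at 6 positions. The score falls to -2.65 SD in end 1 and -2.40 SD in end 2 and lies above 0 over most of the middle.

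When both ends had at least 1 positive window in a library, the receptor segment between them was less complete than in most segments of the same layout elsewhere, and this faded with stricter rules for the presence of an end. In the 114 libraries with at least 1 window of each end, 39.8% of the middle windows were positive on average, against 12.4% in the 45 libraries with 1 end and 2.33% in those with neither. Over 2674 placements of the same layout on chromosome 13 the median was 46.9%, and 1.46% of placements were lower. The middle had no positive window in 10 of the 114 libraries, 8.77% (95% exact binomial interval 4.29% to 15.5%, for counting error), against a placement median of 2.35%, and 98.7% of placements were lower. These 10 libraries came from 7 experiments and had a coverage of 12.7% to 31.3%. The share of libraries with both ends among the 159 with either was 71.7%, above each of the 2674 placements, whose median was 54.2% and highest value 69.8%.

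These comparisons depended on how an end was counted as present. With at least 2 windows, both ends were in 87 libraries, the share with both among those with either was 61.3% and 99.1% of placements were lower. With at least 3 windows these values were 70, 54.7% and 98.2%, and with at least 50% of the windows they were 32, 35.6% and 78.5%. The mean share of middle windows positive was lower than the placement median under each rule, but the share of placements below it grew, from 2.02% with at least 2 windows (45.6% against 52.7%) over 9.80% with at least 3 (51.5% against 57.1%) to 26.9% with at least 50% (62.2% against 65.5%). The middle was absent in 4 of 87, 2 of 70 and 0 of 32 libraries under these rules, the last of which allows a share of up to 10.9% at the upper end of its 95% exact interval. Detection moved with the first comparison. End 1 and end 2 were present in more libraries than in 92.7% and 99.0% of placements when 1 window was enough. The D′ between the presence of end 1 and that of end 2, which takes account of how often each was present, was 0.724 against a placement median of 0.490 with 1 window, with 99.5% of placements lower. With at least 2 windows, 3 windows and 50% of the windows, 93.3%, 96.3% and 53.7% of placements were lower.

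Linkage of the H1 windows with histone loci on other chromosomes was weak. Against 56137 autosomal windows of other chromosomes, the 5 H1 windows had mean D′ values of 0.0241 (Hist1h1c) to 0.0433 (Hist1h1e). None of the 280685 pairs was called by Fisher's exact test (0.0% called), with 8.14% to 10.4% of windows at an unadjusted p under 0.05, and none was called with the Mantel-Haenszel test (4.57% to 5.07% unadjusted). The list comprised 10 genes in 6 windows and included Npat and Casp8ap2, which are not histone genes. In it, 8 of 30 pairs had an unadjusted p under 0.05 by Fisher's exact test and 4 of 30 by the Mantel-Haenszel test. Of the 8 pairs, 5 were of Npat, 1 of Casp8ap2 and 2 of the Hist3 window, and the Hist2 and Hist4 windows had 0. Of the 4 pairs, 2 were of Npat, 1 of Casp8ap2 and 1 of the Hist3 window. The median D′ of these 30 pairs was 0.0642, against 0.0527 over all pairs.

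The highest values in the list belonged to Npat, which encodes the coactivator of histone genes (chr9:53320001-53360000). It was positive together with Hist1h1b in 28 libraries against 15.9 expected, with a D′ of 0.274 (adjusted p = 0.244, Fisher's exact test), higher than 99.7% of the windows of other chromosomes. With Hist1h1e it shared 31 libraries against 18.3 expected, with a D′ of 0.266 and the same adjusted p. Its D′ with Hist1h1d, Hist1h1a and Hist1h1c was 0.170, 0.162 and 0.142, and all 5 pairs had an unadjusted p under 0.05, while 2 of 5 did with stratification by coverage. The Hist3 window with Hist3h2a and Hist3h2ba (chr11:58760001-58800000) had its highest D′, 0.210, with Hist1h1a (adjusted p = 0.334). Casp8ap2, which encodes the histone locus body protein FLASH (chr4:32680001-32720000), ranged from -0.124 with Hist1h1a to 0.188 with Hist1h1b. The Hist2 windows on chromosome 3 ranged from 0.0249 to 0.112 and Hist4h4 on chromosome 6 from -0.185 to 0.108.

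No window of the region differed between protocol arms by the adjusted test, in part for want of libraries. In 8 comparisons within the design, 0 windows of the region were called by Fisher's exact test with adjustment over all windows tested (0.0% of all windows in each comparison), and 0 with stratification by coverage. In the comparisons of reagent protocols and of freezing after incubation, a lone window positive in all libraries of one arm and in none of the other would have had an adjusted p of 0.126 to 0.474 by Fisher's exact test, so a lone window could not be called there. The largest number at an unadjusted p under 0.05 was in the kit comparison, where 15 of 100 windows of the region, against 3.25% of all windows, were lower with the large kit (11 libraries) than with the small kit (12 libraries). Of the H1 genes, Hist1h1a and Hist1h1c were each positive in 0 of 11 against 6 of 12 libraries, Hist1h1d in 1 against 7, Hist1h1e in 2 against 5 and Hist1h1b in 1 against 2. The mean coverage was 14.6% with the large kit and 22.9% with the small kit, and after stratification by coverage 1 of the 100 windows, higher with the large kit, had an unadjusted p under 0.05. The lowest p in the region was shared by the Hist1h1a and Hist1h1c windows with chr13:23600001-23640000, which holds Hist1h4h and Hist1h3g, also at 0 of 11 and 6 of 12 libraries (adjusted p = 1, Fisher's exact test).

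In the other comparisons the unadjusted counts were small. Early against late freezing gave 3 of 102 windows (4.69% of all windows), with the lowest p shared by 2 windows, one of them chr13:21760001-21800000 with Olfr1360 and Olfr1359, positive in 7 of 12 and 1 of 11 libraries. The full collection against all other libraries gave 6 of 105 (6.59%), all lower in the full collection, the lowest p at chr13:22520001-22560000, positive in 5 of 54 and 55 of 195 libraries (adjusted p = 0.589, Fisher's exact test), where experiment and protocol cannot be told apart. Reagent protocols A and B gave 3 of 73 (1.6%), the lowest p at the receptor window chr13:23240001-23280000, positive in 5 of 10 and 0 of 11 libraries. Protocols A and C gave 0 of 73 (0.735%), with the lowest p shared by 2 windows, one of them chr13:21160001-21200000 (Olfr1370, 0 of 10 and 4 of 10). Protocols B and C gave 1 of 64 (2.06%), at chr13:21120001-21160000 (0 of 11 and 4 of 10). Freezing after incubation gave 2 of 88 (1.69%), with the lowest p shared by 2 windows, one of them chr13:24320001-24360000 in Lrrc16a (4 of 10 frozen and 0 of 11 unfrozen libraries). Cresyl violet gave 0 of 104 (2.61%), with the lowest p at chr13:20920001-20960000 (Aoah, 2 of 16 and 5 of 10).

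The arms of 3 to 6 libraries were counted only. With 20, 23 and 25 PCR cycles, Hist1h1b and Hist1h1c were each positive in 1 of 4, 1 of 5 and 0 of 3 libraries, Hist1h1d in 0, 1 and 0, Hist1h1e in 1, 0 and 0, and Hist1h1a in none. With the proteinase K volumes titled 1 and 2 µl, Hist1h1b was positive in 1 of 5 and 3 of 6 libraries, Hist1h1d in 1 and 2, Hist1h1e in 2 and 2, Hist1h1a in 1 and 1, and Hist1h1c in 2 and 1.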

How the data were processed

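The authors aligned reads to mm9 with Bowtie2 (version 2.1 in the submitters' processing notes), removed PCR duplicates with Samtools and called windows of 40 kb positive with GAMtools (fixed read threshold, 4), and only libraries that passed quality control were kept. These calls were deposited as 0 or 1, so depth is unknown and a 0 may reflect absence or too few reads. All 249 columns were matched to labels, and 0 were left over. Groups came from titles, also where the protocol text differs on staining and proteinase K.

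Genes were counted by their start, and windows were classed by the genes they overlap (GENCODE vM1 on the mm9 sequence, whose lengths match the table for 21 of 21 chromosomes). D′ was computed for pairs up to 4 Mb between windows positive in at least 25 libraries. Block values were compared with chromosome 13 pairs outside the region, and z-scores of single pairs and gene classes used all chromosome 13 pairs. Standard errors left out 1 library at a time. An insulation minimum needed a prominence of 0.5 SD. Pairs were tested with Fisher's exact test and Benjamini-Hochberg adjustment, with Mantel-Haenszel tests as alternatives (scipy 1.17.1, Python 3.11.15). Scripts were tested on simulated data.

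The text names the H1 windows and their pairs, and the 3 highest and 3 lowest pairs between the ends. It also names the 2 most and 2 least detected end windows, and the 3 strongest partners of each H1 window at 200 kb or more. The window with the lowest p per protocol comparison is named, as is a list of histone loci, Npat and Casp8ap2 on other chromosomes. The genes, lists and tests were chosen with earlier results of these data known.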

Additional observations from a re-analysis of the deposited data

Results flagged for a closer look

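In 9 groups of 4 to 10 libraries, the share of the 22 end windows positive was checked for a library far from the others. Chance gives this in about 1 of 20 groups of normally distributed values, a rate that does not hold here, since many libraries are at 0 and 1 positive library among them is singled out by construction. The check singled out 2 libraries, both from the PCR cycle experiment. With 20 PCR cycles, replicate 1 had 54.5% of the end windows positive and the other 3 libraries had 0. With 23 PCR cycles, replicate 4 had 63.6% and the next highest of the 5 libraries had 18.2%. The part of these libraries in the linkage values was covered by leaving out the PCR cycle experiment.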

How the results depend on the processing

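No paired analysis was possible because the labels give no replicate number shared between groups. The reference windows positive in 50 to 80 libraries, the counts of 2 and 3 windows per end, and the other measures and left-out experiments for the insulation score were added after the data were seen. The linkage between the ends kept its sign under all alternatives run. When each experiment was left out in turn, its excess D′ ranged from 0.0106 to 0.0421, that of end 1 with the right flank from -0.121 (without the full collection) to -0.0578, and the detection of the ends minus the middle from 1.26 (without the full collection) to 3.61 percentage points. The mean z-score within end 1 moved from -0.42 to -0.85 with normalized pointwise mutual information and with coverage strata, and within end 2 from -0.75 to -1.22 with the former. The middle was absent in 2.86% of libraries when an end needed 3 windows and in 0% when it needed 50% of its windows, against 8.77%. The insulation score at end 1 moved to -1.80 SD with the square of 600 kb. The other 150 alternatives for the main results that left no experiment out were classed as unchanged. Measured values among them stayed within their SE, the share with the middle absent within its interval, and counts within a fixed ratio. The counts of windows called between protocols and of pairs called on other chromosomes were 0 under each setting, and say little about stability. The cause of the shifts named above was not tested. The number of libraries limits the precision: the SE of a single D′ was near 0.08, so differences between the H1 pairs below that size were not resolved. No SE of a difference between H1 pairs was computed, so larger differences were not tested either.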
